A study of Mus musculus with 6 samples.

Results

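The miR-29 family was followed in a microarray study of microRNA (miRNA) in mouse 3T3-L1 adipocytes that were exposed to interleukin-6 (IL-6), an inflammatory cytokine, or left untreated. Its members were the guide strands mmu-miR-29a-3p, mmu-miR-29b-3p and mmu-miR-29c-3p (written below without the mouse prefix), taken by name from the non-control spots of the scanner files. All 3 were present, among 1247 mouse miRNAs on each array. The cells are a mouse embryonic fibroblast line that turns into fat cells in culture. Before sampling they were kept for 3 days in a hormone cocktail of isobutyl-methylxanthine (0.5 mmol/l), dexamethasone (1 µmol/l), insulin (2 µmol/l) and rosiglitazone (2 µmol/l), then for 3 days with insulin and for 2 days without additions. The treated group received IL-6 at 1 ng/ml from induction onwards, with medium renewed every 24 h, and gave 2 arrays. The control group went through the same cocktail and serum changes without IL-6 and gave 4 arrays. Both groups were sampled on day 8. The labels do not state whether replicate arrays stem from separate cultures. The p-values therefore weigh differences only against the variation among these arrays, and that variation may be technical.

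A miRNA acts by pairing its seed, bases 2 to 8 from its 5′ end, with sites in messenger RNAs, which lowers their translation or stability. The miR-29 family is known for repressing collagens and other extracellular matrix genes, and its loss accompanies fibrosis in several organs. In cultured 3T3-L1 adipocytes, forced expression of miR-29 has been tied to weaker insulin-stimulated glucose uptake. The family comes from 2 pairs of hairpins, and miR-29b-3p is cut from a hairpin of each pair.

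The mature sequences are shown because the members differ in very few bases, which bears on how far an array can tell them apart. They were taken from RefSeq (GRCm38.p6), with the seed in capitals.
miR-29a-3p: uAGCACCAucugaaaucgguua
miR-29b-3p: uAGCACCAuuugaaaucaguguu
miR-29c-3p: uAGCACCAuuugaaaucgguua
The seed AGCACCA was the same in all 3 and occurred in no other of the 1679 mature names in the RefSeq table. With positions counted from the 5′ end and the first-named member's base first, miR-29a-3p and miR-29c-3p differed by C10U alone, so that 21 of 22 bases were the same. miR-29b-3p and miR-29c-3p differed by A18G, G21U and U22A. miR-29a-3p and miR-29b-3p differed by C10U, G18A, U21G and A22U, and miR-29b-3p is 1 base longer.

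miR-29a-3p lies at chr6:31062673-31062694 on the minus strand. Its hairpin Mir29a is 275 bases away from Mir29b-1, which holds a copy of miR-29b-3p at chr6:31063025-31063047. The second pair lies on the plus strand of chromosome 1, with miR-29b-3p at chr1:195037091-195037113 in Mir29b-2 and miR-29c-3p at chr1:195037600-195037621 in Mir29c, and 426 bases between the hairpins. RefSeq places the chromosome 1 pair within the non-coding gene A330023F24Rik and the chromosome 6 pair within no other annotated gene. Both copies of miR-29b-3p have 1 mature sequence, so the array reads their sum.

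Each member was measured by 2 probes with 20 spots each, as printed here 5′ to 3′, with capitals at the bases that pair with positions where the members differ.
miR-29a-3p, 19 bases: TAacCgatttcaGatggtg
miR-29a-3p, 20 bases: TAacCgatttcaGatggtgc
miR-29b-3p, 20 bases: AACacTgatttcaAatggtg
miR-29b-3p, 21 bases: AACacTgatttcaAatggtgc
miR-29c-3p, 21 bases: TAacCgatttcaAatggtgct
miR-29c-3p, 22 bases: TAacCgatttcaAatggtgcta
Both probes of miR-29a-3p pair with miR-29c-3p except at 1 base, and both probes of miR-29c-3p pair with miR-29a-3p except at 1 base. The probes of miR-29b-3p have 4 mismatches to miR-29c-3p and 5 to miR-29a-3p. How much of a member's signal came from another member was not tested.

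The 3 guide strands were bright on the arrays, with all 40 spots of each well above background on all 6 arrays, and none was saturated. The scaled signal is the spot intensity, background-subtracted by the scanner software, averaged over a miRNA's spots and probes and brought to a common scale over arrays by the 75th percentile of the 502 probes detected on every array. That percentile was 440 and 369 intensity units on the IL-6 arrays and 248 to 396 on the control arrays. In mean log2 signal miR-29a-3p lay above 91.6% of the 299 tested miRNAs, miR-29b-3p above 86% and miR-29c-3p above 79.3%. These shares describe array signal and not abundance, because probes of different sequence bind with different strength, and the order of the 3 members in the cells was not measured.

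The fat-cell state could be read only through miRNAs. No array of undifferentiated cells was there for comparison, so these markers cannot show how far the cells had turned into fat cells. Of the miRNAs fixed as markers, miR-143-3p, miR-103-3p, miR-107-3p and miR-378a-3p, which are enriched in adipocytes, were detected on all arrays. Their summed scaled signal was 4105 to 4202 with IL-6 and 4276 to 4931 in controls, a difference that was not tested. Single miRNAs lay below all controls on both IL-6 arrays in 61 of 299 (20.4%). The groups overlapped for miR-103-3p and miR-107-3p, and miR-143-3p was below all controls on both IL-6 arrays. The mesenchymal miRNAs miR-199a-3p, miR-214-3p and miR-145a-5p were also detected on all arrays (3346 to 3828 with IL-6, 3179 to 3926 in controls). The 4 muscle, 6 blood, 1 liver, 2 neural, 1 endothelial and 6 epithelial markers on the array were detected on none. This covers the fixed markers only, and other miRNAs of those tissues were not read as markers. Mouse miRNAs detected numbered 313 and 300 on the IL-6 arrays and 268 to 294 on the control arrays. The control arrays filled row 1 of the slide and the IL-6 arrays row 2, so slide row and treatment cannot be told apart.

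The first question was whether IL-6 changed the level of any miR-29 guide strand. None of the 3 members passed the test, and for each of them the IL-6 and control arrays overlapped. The differences were between -0.06 and 0.01 on the log2 scale, each smaller than the SD between control arrays of that member. In bulk RNA such as this, fewer cells of a type and less RNA per cell cannot be told apart. The comparison used limma over all 299 tested miRNAs with Benjamini-Hochberg adjustment at 0.05.

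miR-29a-3p had a scaled signal of 1460 and 1360 on IL-6 arrays 1 and 2, against 1547, 1441, 1525 and 1385 on control arrays 1 to 4. IL-6 array 2 was the lowest of the 6, and IL-6 array 1 sat in the middle of the controls. The log2 means were 10.46 ± 0.07 (SD, n = 2) on the IL-6 arrays and 10.52 ± 0.07 (SD, n = 4) on the control arrays. The log2 difference was -0.06 ± 0.06 SE (limma adjusted p = 0.606), with a 95% confidence interval of -0.22 to 0.09. As a ratio this is 0.957-fold, with an interval of 0.857-fold to 1.07-fold.

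miR-29b-3p, the member made by both hairpin pairs, had a scaled signal of 738 and 679.7 with IL-6, against 725, 681, 763 and 777 in controls. IL-6 array 2 and control array 2 were nearly equal at the low end, and control arrays 3 and 4 were highest. The log2 means were 9.47 ± 0.08 (SD, n = 2) on the IL-6 arrays and 9.52 ± 0.09 (SD, n = 4) on the control arrays. The difference was -0.05 ± 0.07 SE (limma adjusted p = 0.717), with an interval of -0.23 to 0.13, or 0.850-fold to 1.09-fold.

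miR-29c-3p had a scaled signal of 418 and 376 with IL-6, against 412, 394, 391 and 377 in controls. The IL-6 arrays were the highest and the lowest of the 6, on either side of all controls. The log2 means were 8.63 ± 0.11 (SD, n = 2) on the IL-6 arrays and 8.62 ± 0.05 (SD, n = 4) on the control arrays. The difference was 0.01 ± 0.06 SE (limma adjusted p = 0.993), with an interval of -0.14 to 0.16, or 0.905-fold to 1.12-fold.

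**Figure D1:**
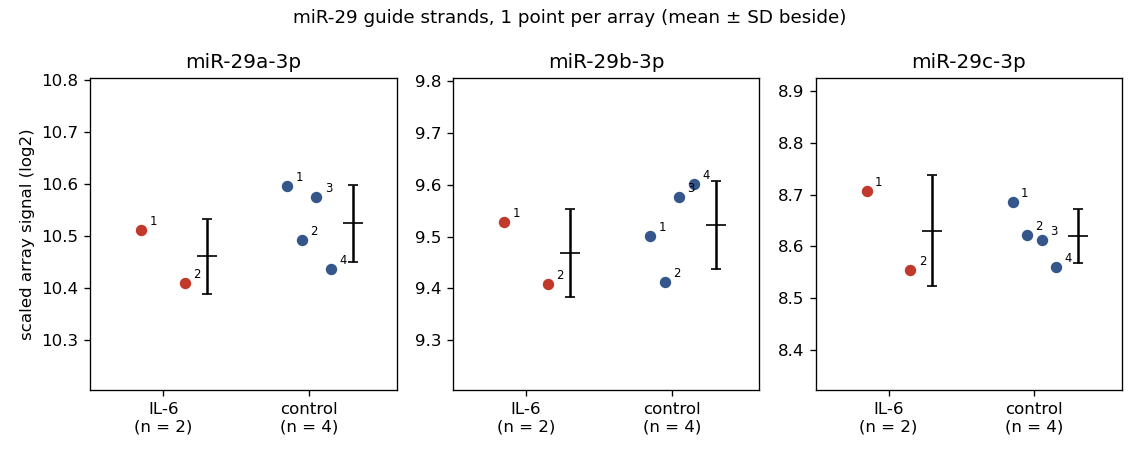
Scaled array signal (log2, vertical axis) of the 3 miR-29 guide strands, with 1 numbered point per array for IL-6 (left of each panel, n = 2) and control (right, n = 4), and the mean ± SD beside each group. The groups overlap in all 3 panels, and IL-6 array 2 is the lowest array for each member.

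Of the 3 members, 0 passed at the adjusted threshold (limma), against 2 of all 299 tested miRNAs, or 0.669%. Those 2 were miR-5117-5p and miR-669c-3p, both higher with IL-6 and at or near the lowest measurable signal in controls. At an unadjusted p under 0.05, 0 of the 3 members and 64 of 299 miRNAs (21.4%) were called by limma. By direction, limma called 27 higher (9.03%) and 37 lower (12.4%), none of them a member. Both IL-6 values fell beyond all control values for 0 of 3 members and for 96 of 299 miRNAs (32.1%), of which 35 were above (11.7%) and 61 below (20.4%). The median difference of the members was -0.05, beside -0.01 over all tested miRNAs, whose quartiles were -0.13 and 0.07. Ordered by the size of the difference regardless of sign, miR-29a-3p exceeded 35.1% of tested miRNAs, miR-29b-3p 32.4% and miR-29c-3p 12.4%.

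The spread between control arrays was also small. The SD of the log2 signal over controls was 0.07 for miR-29a-3p, 0.09 for miR-29b-3p and 0.05 for miR-29c-3p, beside a median of 0.10 over all tested miRNAs. A p above the threshold does not show that the levels were equal. The intervals run from 0.850-fold to 1.12-fold over the 3 members.

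**Figure D2:**
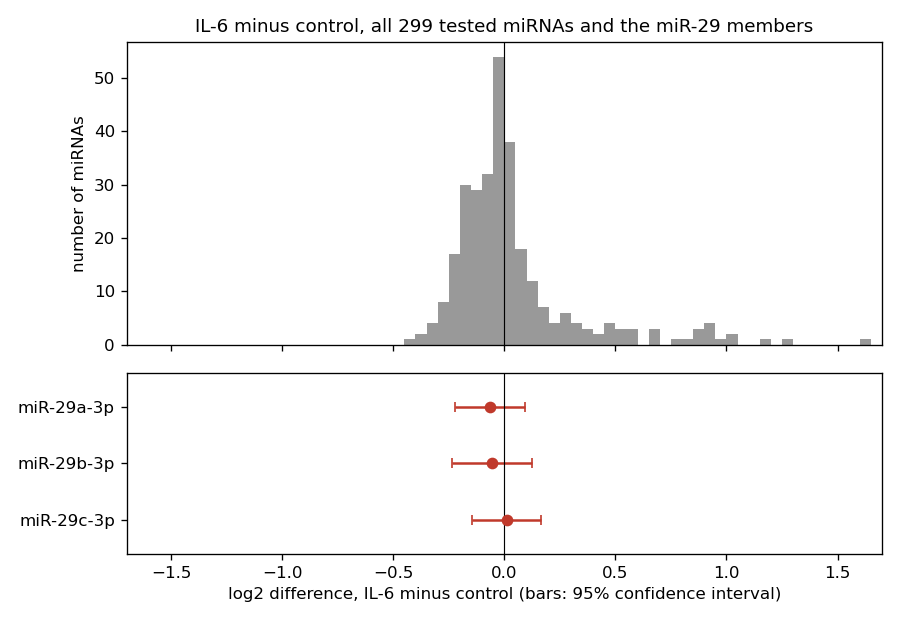
Top, number of miRNAs by IL-6 minus control log2 difference, for all 299 tested miRNAs. Bottom, the same difference for the miR-29 members with its 95% confidence interval, each of which spans 0.

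Slide columns 3 and 4 held 1 array of each group, and give the difference within a column without a test. For miR-29a-3p it was -0.06 in column 3 and -0.03 in column 4. For miR-29b-3p it was -0.05 and -0.19, and for miR-29c-3p 0.09 and -0.01. The median over all tested miRNAs was -0.03 in column 3 and -0.0016 in column 4. The larger gap of miR-29b-3p in column 4 involves control array 4, where this member was highest.

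Before scaling, the members followed the overall brightness of the array. The unscaled signal of miR-29a-3p was 1798 and 1405 intensity units on IL-6 arrays 1 and 2, and 1060 to 1596 on the controls, where control array 3 was dimmest. The highest array exceeded the lowest by 1.70 times for miR-29a-3p, 1.71 times for miR-29b-3p and 1.89 times for miR-29c-3p. After scaling these ratios were 1.14, 1.14 and 1.11. Without scaling the differences were 0.23, 0.24 and 0.30, beside a median of 0.22 over all tested miRNAs.

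The signal of the 3 members together is given as array signal only. The log2 of the summed signal was 11.30 ± 0.08 (SD, n = 2) on the IL-6 arrays and 11.35 ± 0.05 (SD, n = 4) on the control arrays. The difference was -0.05 (exact permutation test, two-sided, p = 0.4). The 15 splits of 6 arrays into 2 and 4 allow no p below 0.0667.

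The probes of each member gave like differences. For miR-29a-3p both the 19-base and the 20-base probe differed by -0.06. For miR-29b-3p the 20-base probe differed by -0.08 and the 21-base probe by -0.04. For miR-29c-3p the 21-base probe differed by -0.01 and the 22-base probe by 0.03, so the direction of this member rested on which probe was read. The coefficient of variation over the spots of a probe on an array was 3.14% to 7.49% for miR-29a-3p, 2.68% to 6.67% for miR-29b-3p and 2.45% to 5.28% for miR-29c-3p.

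**Figure D3:**
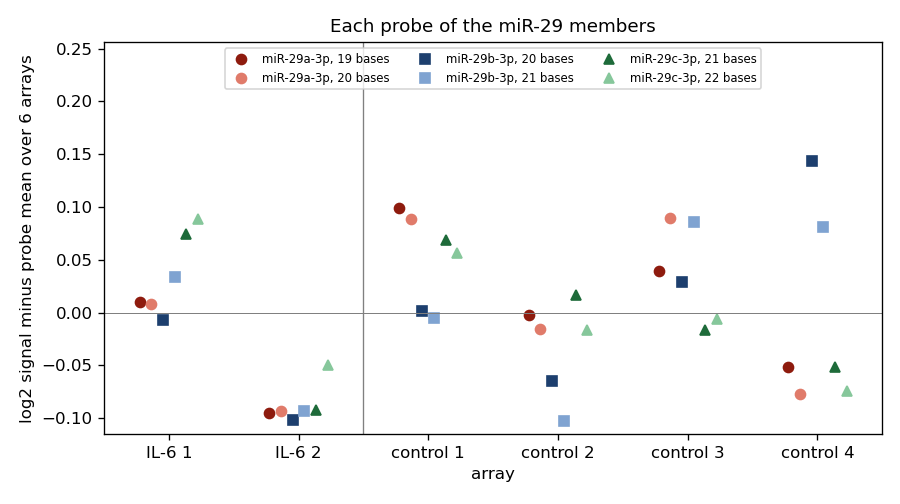
Log2 scaled signal of each probe of the miR-29 members minus that probe's mean over 6 arrays (vertical axis), by array (IL-6 arrays left of the line). The farthest point, the 20-base miR-29b-3p probe on control array 4, lies 0.144 from its probe's mean, all 6 probes are below their mean on IL-6 array 2, and both miR-29b-3p probes are high on control array 4, where the other 4 are low.

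The longer probe was brighter than the shorter one for every member on every array. In log2 the longer probe of miR-29a-3p exceeded the shorter by 0.78 to 0.79 on the IL-6 arrays and 0.76 to 0.84 on the controls. For miR-29b-3p this was 1.48 to 1.51 with IL-6 and 1.41 to 1.53 in controls. For miR-29c-3p it was 0.30 to 0.33 with IL-6 and 0.25 to 0.297 in controls. The last pair of ranges did not overlap, with group means 0.04 apart. Probe pairs of other miRNAs were not counted, and both IL-6 values fell beyond all controls for 32.1% of single miRNAs.

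The second question was whether the members kept their proportions to each other, which can be read within an array and is not changed by scaling each array by 1 factor. Differences between 2 members were compared between groups with the exact two-sided permutation test, over 3 pairs. As scaled here, none of the pairs gave the smallest p that the design allows. After quantile normalization, 1 did: miR-29c-3p minus miR-29a-3p, with a difference of 0.11 and an exact permutation p of 0.0667.

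The gap of miR-29c-3p minus miR-29a-3p was -1.81 and -1.85 (log2) on the IL-6 arrays, against -1.91, -1.87, -1.96 and -1.88 on control arrays 1 to 4. Both IL-6 arrays lay above all controls. For single miRNAs, both IL-6 values fell beyond all control values in 96 of 299 (32.1%), and other pairs of miRNAs were not counted. The gap was 0.07 higher with IL-6, with an exact permutation p of 0.133 (0.4 after Benjamini-Hochberg adjustment over 3 pairs). It was higher within both slide columns, by 0.16 in column 3 and 0.02 in column 4. That direction follows from both IL-6 arrays lying above all controls, so it adds no support.

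The gap of miR-29b-3p minus miR-29a-3p was -0.98 and -1.0001 on the IL-6 arrays, against -1.09, -1.08, -0.999 and -0.83 on the controls. Control array 4 stood above the others, and the groups overlapped. The groups differed by 0.0097 (exact permutation p = 0.933, adjusted 0.933). Without control array 1 or without control array 2 it was -0.02 in each case.

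The gap of miR-29b-3p minus miR-29c-3p was 0.82 and 0.85 on the IL-6 arrays, against 0.82, 0.79, 0.96 and 1.04 on the controls, with overlapping groups. The groups differed by -0.06 (exact permutation p = 0.667, adjusted 0.933). Leaving out 1 array at a time gave -0.10 (without control array 2) to -0.02 (without control array 4), and slide column as a block gave -0.16. Over the control arrays the SD of the gap was 0.12 for both pairs with miR-29b-3p and 0.04 for miR-29c-3p minus miR-29a-3p. On the 2 IL-6 arrays that last pair instead had the largest SD of the 3, at 0.03. There the SD was 0.01 for miR-29b-3p minus miR-29a-3p and 0.02 for miR-29b-3p minus miR-29c-3p. The pair steadiest over the controls, miR-29c-3p and miR-29a-3p, has the most similar probes and comes from different chromosomes. The part of probe similarity in the spread of its gap was not tested.

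**Figure D4:**
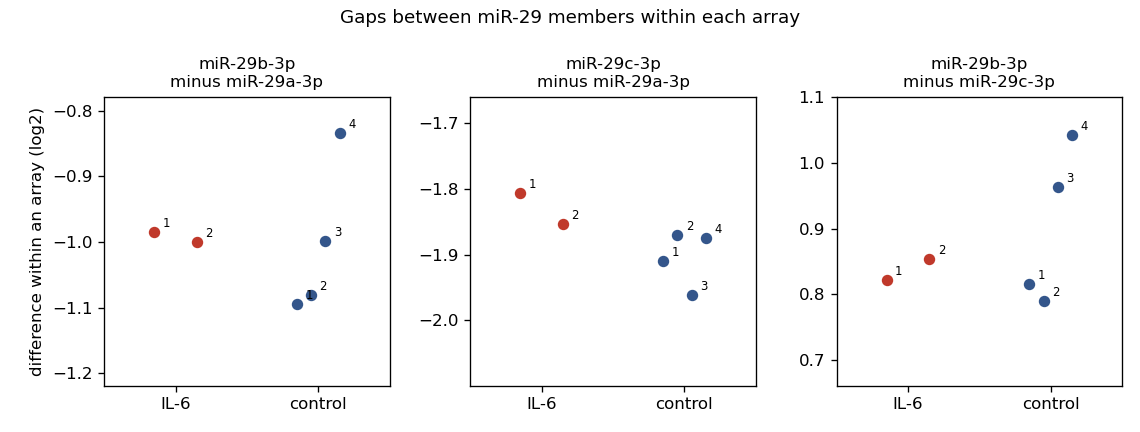
Difference between 2 members within each array (log2, vertical axis; numbers name the arrays), for IL-6 (left, n = 2) and control (right, n = 4). For miR-29c-3p minus miR-29a-3p the IL-6 arrays lie at -1.81 and -1.85, above the controls at -1.96 to -1.87, and in the other panels the groups overlap. How often other pairs of miRNAs separate was not counted.

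The other strands of the hairpins, the 5p arms, were near or below the detection limit. These strands are usually degraded once the guide strand is loaded. Detection of a probe required that the fraction of its spots well above background reach 0.5. miR-29b-1-5p, from the chromosome 6 pair, came nearest, with 8 and 4 of 40 spots well above background on IL-6 arrays 1 and 2, against 4, 9, 0 and 2 on control arrays 1 to 4. Its 22-base probe was detected on IL-6 array 1 and on control array 2, with 7 of 10 spots on each.

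miR-29a-5p had 3 and 1 of 40 spots well above background with IL-6, against 0, 3, 1 and 2 in controls. miR-29b-2-5p, from the chromosome 1 pair, had 0 spots on every array (0 of 80 with IL-6 and 0 of 160 in controls). miR-29c-5p had 0 of 80 with IL-6 and 1 of 160 in controls. None of the 4 arms met the rule for testing, which asked for detection on both IL-6 arrays or on all 4 control arrays. The scanner software's own call was more lenient, and marked miR-29a-5p and miR-29b-1-5p as detected on 5 of 6 arrays, all but control array 3, and the other 2 arms on none.

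The longest 5p probe of each arm is printed, since the arms, unlike the guide strands, tell the Mir29b-1 and Mir29b-2 hairpins apart.
miR-29a-5p, 22 bases: ctgaacaccaaaagaaatcagt
miR-29b-1-5p, 22 bases: taaaccaccatatgaaaccagc
miR-29b-2-5p, 18 bases: aatctaagccaccatgtg
miR-29c-5p, 21 bases: gaacaccaggagaaatcggtc
The 22-base probe of miR-29b-1-5p had a scaled signal of 10.8 and 11.2 with IL-6, against 12.96, 12.01, 10.01 and 9.60 in controls. The 18-base probe of miR-29b-2-5p had -0.13 and -0.47 with IL-6, against 0.90, 0.82, 0.25 and 0.25 in controls, where values below 0 lie under the fitted background. Probes of other length and sequence do not bind alike, so these values give no ratio between the hairpins.

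**Figure D5:**
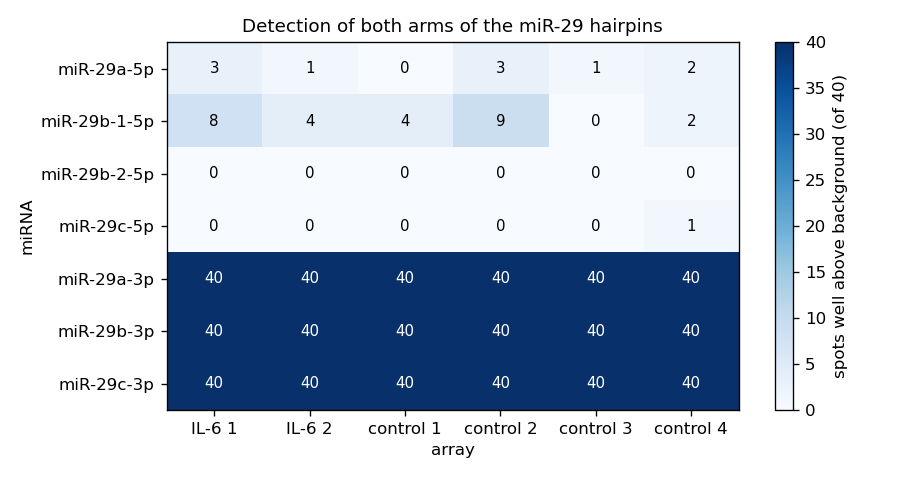
Number of spots well above background, of 40, for each miR-29 strand (rows) on each array (columns, IL-6 first). The guide strands have 40 on every array, and the 5p arms between 0 and 9.

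Among the other tested miRNAs, those whose log2 profile over the 6 arrays was most like that of a member were found by the mean absolute gap between profiles, each centred on its own mean. The arrays share their scaling, so these values are a description. For miR-29a-3p they were miR-148b-3p (gap 0.02), miR-92a-3p (0.02) and miR-28c (0.03). For miR-29b-3p they were miR-574-3p (0.03), miR-101b-3p (0.05) and miR-22-3p (0.05). For miR-29c-3p they were miR-185-5p (0.03), miR-3102-3p (0.03) and miR-322-3p (0.04).

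Between the members themselves the gap was 0.04 for miR-29a-3p and miR-29c-3p, the fifth smallest of 298 seen from either. The gap between miR-29a-3p and miR-29b-3p was 0.06, in place 67 of 298 seen from miR-29a-3p and 14 seen from miR-29b-3p. The gap between miR-29b-3p and miR-29c-3p was 0.08, in place 76 and 104.

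The family is linked to insulin action and to fibrosis, and other miRNAs tied to these by general knowledge were read beside it. Of 33 insulin-linked miRNAs on the array 28 were tested. In either direction 0 passed (limma adjusted p of 0.0871 or more), beside 0.669% of all tested miRNAs. At an unadjusted p under 0.05, 0 were higher with IL-6, beside 9.03% of all tested miRNAs. Lower were 5, or 17.9%, beside 12.4% of all tested miRNAs. The median difference was -0.04, beside -0.01 over all tested miRNAs, and 16 were below 0 (57.1%) and 12 above, beside 177 below (59.2%) and 122 above over all. Removing IL-6 array 2 turned the list's median to 0.01, and removing IL-6 array 1 gave -0.10.

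The insulin-linked miRNAs with the highest signal were miR-21a-5p at -0.15 ± 0.06 SE, let-7a-5p at -0.03 ± 0.12 SE and let-7f-5p at -0.05 ± 0.12 SE. miR-21a-5p, a target gene of STAT3 in several cell types, was lower on both IL-6 arrays than on all controls (limma adjusted p = 0.210). The same held for 61 of 299 tested miRNAs (20.4%), itself included. The largest differences were -0.40 for miR-96-5p, which can target the insulin receptor substrate, and 0.20 for let-7i-5p (limma adjusted p = 0.204 and 0.297). The 5 with an unadjusted p under 0.05, named here after their values were seen, were miR-143-3p (-0.39), miR-155-5p (-0.35), miR-27b-3p (-0.23), miR-96-5p and miR-21a-5p.

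Of 23 fibrosis-linked miRNAs on the array 16 were tested, 5 of them also in the insulin list. Of the 16, 0 passed (limma adjusted p of 0.0615 or more), beside 0.669% over all. At an unadjusted p under 0.05, 0 were higher with IL-6, beside 9.03% over all. Lower were 5, or 31.2%, beside 12.4% over all. The median was -0.07, with 11 below 0 (68.8%, beside 59.2% over all) and 5 above. The brightest were miR-21a-5p as above, miR-199a-3p at -0.05 ± 0.13 SE and miR-199b-5p at 0.08 ± 0.07 SE, the last with the largest positive difference. The largest negative one was miR-143-3p (-0.39 ± 0.08 SE), a smooth muscle and adipocyte miRNA. The 5 lower at an unadjusted p were miR-143-3p, miR-155-5p, miR-31-5p (-0.30), miR-192-5p (-0.28, with signals near the floor) and miR-21a-5p, chosen after their values were seen. Whether the miR-29 members differed from these lists was not tested.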

How the data were processed

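MicroRNA was measured on 6 1-colour Agilent mouse miRNA arrays, 2 with IL-6 and 4 controls, grouped and numbered by their titles. Per the labels' protocols, Cy3 labelling started from 100 ng of total RNA (integrity numbers 9.5 to 10). Per the file headers, Agilent Feature Extraction 10.10.1.1 gave intensity values with a fitted background subtracted and no surrogate for dim spots. The deposited spot flags, a unit of another kind, mark spots as well above background, uneven, outlying or saturated. The deposited series table held intensity values equal to the scanner's total signal per probe (largest difference 0 on all arrays, column medians 0.0727 and 0.117 for IL-6 1 and 2 and 0.0937, 0.104, 0.0777 and 0.0781 for controls 1 to 4). No later normalization by the authors is stated in the labels used.

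Of 49880 mouse spots for 3105 probes, uneven and outlying ones were left out and the rest averaged per probe. Arrays were scaled as described above, probe signals below 16.2 were set to that floor, probes of a miRNA were averaged and log2 was taken, which leaves the bright miR-29 guide strands untouched. The 299 miRNAs detected on both IL-6 or all 4 control arrays were tested with limma 3.58.1 in R 4.3.3 (lmFit, eBayes with a mean trend, two-sided), of which 12 sat at the floor on all arrays. The fit was checked on simulated data. miRNAs were named by a fixed rule: the members and 5p arms, the 3 profiles most like each member, and in each list those past the threshold, the 3 brightest and the largest difference in each direction. The members and lists were chosen with earlier results of these data known. The number of arrays limits the precision.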

Additional observations from a re-analysis of the deposited data

How the results depend on the processing

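None of the 3 members passed the test in any of the 19 alternatives with one (limma adjusted p from 0.314 for miR-29a-3p, 0.308 for miR-29b-3p and 0.374 for miR-29c-3p upwards). Without scaling, miR-29a-3p stood at 0.23, miR-29b-3p at 0.24, the members' median at 0.24, the summed signal at 0.24, the insulin list's median at 0.23 and the fibrosis list's at 0.22, with 20 miRNAs called higher. When the percentile was taken over all mouse probes (overall median -0.10), miR-29c-3p stood at -0.10, the members' median at -0.17 and the fibrosis median at -0.18, with 5 miRNAs called higher and 12 lower and 1 of the insulin list (miR-320-3p, -0.31, named after its value was seen). With the total signal per miRNA, which moved the overall median to 0.07, the values were 0.032 for miR-29a-3p, 0.042 for miR-29b-3p and for the members' median, 0.046 for the sum, 0.027 for the fibrosis median and 0.052 for the insulin median. The series table put miR-29c-3p at -0.0091 and called 0 higher. Quantile normalization called 3 lower, with a fibrosis median of -0.14, and put miR-29c-3p minus miR-29a-3p at 0.11 (exact permutation p = 0.0667, the smallest of 15 splits). With flagged spots kept, miR-29b-3p minus miR-29a-3p was -0.0031, and with slide column as a block -0.076. That block put miR-29b-3p minus miR-29c-3p at -0.16 and the insulin median at 0.0022.

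The numbers called higher were 0 with normexp and with slide column as a block, 8 with no detection filter and 1 with the floor set on the miRNA signal (chosen after seeing the data), and 1 was called lower with no mean trend. Within slide column 3, miR-29c-3p minus miR-29a-3p was 0.16 and miR-29c-3p 0.093. Within column 4, miR-29b-3p was -0.19, and the gaps were -0.17 for miR-29b-3p minus miR-29a-3p, 0.021 for miR-29c-3p minus miR-29a-3p and -0.19 for miR-29b-3p minus miR-29c-3p. The cause of these shifts was not tested.

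Leaving out 1 array at a time gave -0.12 to -0.01 for miR-29a-3p, -0.11 to 0.0050 for miR-29b-3p, -0.065 to 0.086 for miR-29c-3p, -0.11 to 0.0068 for the sum, -0.021 to 0.066 for miR-29b-3p minus miR-29a-3p, -0.102 to -0.018 for miR-29b-3p minus miR-29c-3p, -0.16 to -0.019 for the fibrosis median and -0.104 to 0.014 for the insulin median. Calls ranged from 0 to 6 higher and 0 to 3 lower, and from 0 to 1 in the fibrosis list (miR-192-5p, -0.35, without control array 4, named after its value was seen). Removal of control array 4 (-0.0097) or of IL-6 array 1 (-0.065) turned miR-29c-3p negative, and removal of IL-6 array 2 turned miR-29b-3p positive (0.0050).

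The titles number the arrays, but nothing says that a number marks a shared culture. The deviations of same-numbered arrays correlated at 0.13 and -0.36 over miRNAs. Those of arrays in the same slide column correlated at 0.46 (column 3) and 0.57 (column 4). Among pairs sharing neither, IL-6 array 1 correlated at 0.36 with control array 2 and at -0.57 with control array 4. IL-6 array 2 correlated at -0.13 with control array 1 and at -0.46 with control array 3. The 2 IL-6 arrays deviate from their mean in opposite directions, so these correlations are not independent. With the replicate block, miR-29b-3p was 0.012, miR-29c-3p -0.023, the insulin median -0.0996 and 0 miRNAs were called higher by limma (at an unadjusted p under 0.05, 28 were higher and 17 were lower).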

Other observations

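The scanner files list a position for every probe. On chromosome 1, all 8 listed positions of miR-29 probes inside these hairpins (both arms) fell within the RefSeq position of the mature strand they are named for (GRCm38.p6). On chromosome 6, 0 of 12 did. Mirrored about the centre of the hairpin, all 12 fell within it. The chromosome 6 hairpins are on the minus strand. The coordinates given above are therefore those of RefSeq.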
